A study of Campylomormyrus compressirostris and Campylomormyrus rhynchophorus and Campylomormyrus compressirostris x Campylomormyrus rhynchophorus with 15 samples.

Results

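The data described here are the levels of 150 gene models in the electric organ of juvenile African weakly electric fish of the genus *Campylomormyrus*. In each of these gene models *C. rhynchophorus* (*rhy*) had a lower transcript level than *C. compressirostris* (*com*), and the F1 hybrids of the pair (*com* x *rhy*, from a *com* male and a *rhy* female) had a mean close to midway between the parental means. The members were chosen by these measured values, so their levels and the calls given for them below are a description and not a test of the pattern. Poly(A) RNA of whole electric organs was sequenced with 1 library per fish, in 5 hybrids (comrhy59 to comrhy63), 5 *rhy* (rhy49 to rhy53) and 5 *com* (com104, com121, com123, com124 and com125). The labels give every fish a length of 6 cm and no treatment, age, sex, clutch or batch. The fish were bred in captivity, and no source used here says whether fish of a group were siblings, so the spread between fish of a group may be that within 1 family. In bulk tissue, fewer cells of a type and less RNA per cell cannot be told apart.

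The electric organ of mormyrid fish derives from muscle and consists of electrocytes, cells that fire together to make the electric organ discharge used for orientation and communication. The discharge of *rhy* lasts longer than that of *com*, and discharge shape and duration rest largely on the ion channels and the geometry of the electrocyte. The study reports that the discharge of juvenile hybrids is about as short as that of *com*, so it is not midway at this stage. An F1 hybrid carries 1 genome copy of each parental species in every cell. If each copy is expressed at the level it has in its own species, the hybrid total lies at the mean of both parents, which is called additive expression, whereas a hybrid level at that of 1 parent is called dominance. The deposited files hold the totals of both copies, so the share of each copy was not measured here. The study did measure it in hybrids, at genes with fixed differences between the parents. *PPP1R3A*, named below, is among the genes it lists. There the *com* copy made up only slightly more than the *rhy* copy on average in juvenile hybrids. The levels of this gene in both parents, given below, were much lower in *rhy* than in *com*. Copies kept at these parental levels would give the *com* copy a much larger share than the study lists. The reason for this difference was not tested.

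Levels are given in TPM, a length-corrected measure of transcript abundance that gives the share of a gene model in each library. The position of a hybrid is its distance from the *com* mean divided by the distance between the *rhy* and *com* means, with 0 at the *com* mean and 1 at the *rhy* mean. Of 34492 gene models, 15159 had a *com* mean of at least 2 TPM, and 14732 of these also had a *rhy* mean of at least 0.5 TPM. In 1939 the *com* mean was at least 2 times the *rhy* mean, and in 1118 of them every *com* fish was also above every *rhy* fish, which are called *rhy*-low below. The hybrid mean had a position from 0.4 to 0.6 in 268 *rhy*-low gene models. Of these, 9 carry identifiers printed in the study's own gene tables and were set aside, and of the remaining 259 the 150 with the largest ratio of *com* over *rhy* were taken as members and ranked by it. At the edge of the selection, the last member (rank 150, contig ptg001643l) had a ratio of 2.94, against 2.93 in the first gene model left out. Outside the interval and the minimum, only gene models with a ratio at least that of the last member were searched. The lowest member position was 0.4001 and the highest 0.5997, against 0.3996 and 0.6007 in the closest of these *rhy*-low gene models. The lowest *rhy* mean of a member was 0.512 TPM, against 0.494 TPM in the closest gene model under the minimum with such a ratio.

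The files and tables used here do not pair the members' identifiers with gene names, so members are given by rank and contig, and identifiers are printed for 2 of them. The 9 gene models set aside do have names. They are those of the 268 that the study's tables list. The study placed all 9 in a cluster of genes whose level falls as discharge duration rises, fitted with these fish and adults. A low level in *rhy*, with its longer discharge, is thus close to part of the reason for their listing, which also required a difference between juveniles and adults. *PPP1R3A* is an exception, listed for a change in the share of its copies between juvenile and adult hybrids. The 9 are named examples and not a sample of the members. *NR4A1*, an immediate-early nuclear receptor, had 234 TPM in the hybrids, 1.60 TPM in *rhy* and 532 TPM in *com*, a position of 0.56. *GRIA3*, an AMPA-type glutamate receptor subunit, had 9.69 TPM in the hybrids, 2.75 TPM in *rhy* and 17.4 TPM in *com* (position 0.53). *PPP1R3A*, which targets protein phosphatase to muscle glycogen, had 218 TPM in the hybrids, 110.1 TPM in *rhy* and 367 TPM in *com* (position 0.58). The other 6 were *PTPRD*, a receptor tyrosine phosphatase of cell adhesion, *DLGAP2*, a scaffold protein of the postsynaptic density, *FADS6*, a fatty acid desaturase family gene, *HPGD*, which inactivates prostaglandins, *DIPK1B* and *ADGRA1*, an adhesion G protein-coupled receptor. Their *rhy* means were 17.6% to 30.7% of the *com* means and their positions 0.44 to 0.55. The *ADGRA1* gene model meant here lies on contig ptg000457l, and another that the study lists under this name was not among the 268. As a check of the tissue, *SCN4AA*, the muscle sodium channel gene used by the electric organ, had 1092 to 1534 TPM in the hybrids, 372 to 527 TPM in *rhy* and 1094 to 2215 TPM in *com*. *KCNA7A_1*, a voltage-gated potassium channel gene of the electrocyte, had 319 to 460 TPM in the hybrids, 40.1 to 71.3 TPM in *rhy* and 1293 to 1722 TPM in *com*, so both channel genes were present in all fish and both were lowest in *rhy*.

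The members were highest in the group with the smallest libraries. Total expected counts were 12973363 to 19259314 in the hybrids, 12502127 to 13927972 in *rhy* and 8346594 to 11549627 in *com*. The most abundant gene model took 4.38% to 5.89% of counts in the hybrids, 2.64% to 5.18% in *rhy* and 3.63% to 19.3% in *com*. Over the 15159 gene models with a *com* mean of at least 2 TPM, the median *rhy* level was 106% of *com*, so the low *rhy* level of the members was not shared by the typical gene model. The reads of all groups were mapped to the *com* genome. A loss of *rhy* reads at single gene models was not tested, either in *rhy* fish or for the *rhy* copy in hybrids. Such a loss in both would also place hybrids between the parents, and it cannot be told apart here from a lower transcript level.

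The members covered a wide range of abundance. Their mean levels were 1.48 to 1028 TPM in the hybrids (median 10.6), 0.512 to 374 TPM in *rhy* (median 2.96) and 2.26 to 1505 TPM in *com* (median 17.3). The *com* mean was under 5 TPM in 20 members, from 5 to under 20 TPM in 59, from 20 to under 100 TPM in 46 and at least 100 TPM in 25. The *rhy* mean was 2.77% to 34.0% of the *com* mean, with a median of 22.6%. The ratio of *com* over *rhy* was at least 10 in 15 members, between 5 and 10 in 46, and below 5 in 89. The hybrid mean was 43.0% to 73.2% of the *com* mean, with a median of 61.6%.

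Summed over all 150 members, the 5 hybrids had 7270.4 ± 403 TPM, the 5 *rhy* 2733 ± 227 TPM and the 5 *com* 11628 ± 930.1 TPM (SD, n = 5 each). The sums were 6847 to 7697 TPM in the hybrids, 2431 to 2998 TPM in *rhy* and 10281 to 12649 TPM in *com*, so the groups did not overlap, and the hybrid mean sum had a position of 0.49. The members took 1.01% to 1.16% of all counts in the hybrids, 0.403% to 0.469% in *rhy* and 1.56% to 2.0% in *com*. The 5 most abundant members held 36.6% of the summed *com* level. In the plot of member levels by fish, the median member of each hybrid lay at 56.1% to 61.8% of the *com* mean, that of each *rhy* at 17.2% to 24.23% and that of each *com* fish at 91.3% to 105%.

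**Figure D1:**
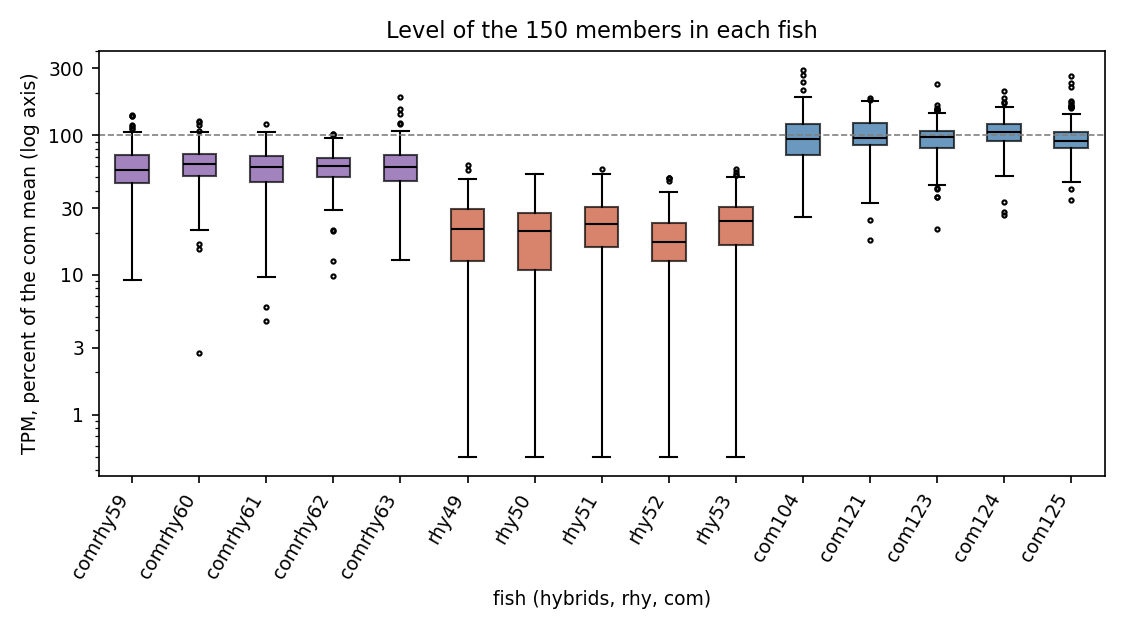
TPM of the 150 members in each fish as percent of that member's *com* mean, on a log axis, for hybrids (purple), *rhy* (red) and *com* (blue). Boxes show median and quartiles, whiskers reach 1.5 times the interquartile range and points lie beyond it, with values under 0.5% drawn at 0.5%. The medians of the 5 hybrids lie between 56.1% and 61.8%, above those of all *rhy* and below those of all *com* fish.

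The member of rank 1 (maker-ptg000904l-augustus-gene-5.261, contig ptg000904l, 2709 bases) had 15.9, 13.0, 9.86, 26.6 and 5.12 TPM in the hybrids, 0.66, 0.18, 0.75, 0.85 and 1.18 TPM in *rhy*, and 33.4, 26.8, 18.7, 34.1 and 17.97 TPM in *com*, with fish in the order of their numbers. Every hybrid was above every *rhy* fish, while comrhy62 lay among the *com* fish. Its group means were 14.1 ± 8.05 TPM in the hybrids, 0.724 ± 0.362 TPM in *rhy* and 26.2 ± 7.73 TPM in *com* (SD, n = 5 each), a position of 0.48.

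The members of ranks 2 to 5 also had *rhy* means below 5% of the *com* mean. Rank 2 (ptg000253l) had 5.37, 14.5, 22.4, 12.75 and 12.6 TPM in the hybrids, 0.95, 0, 0.40, 1.75 and 1.15 TPM in *rhy*, and 19.6, 26.4, 27.8, 41.0 and 27.2 TPM in *com*. Only comrhy61 overlapped the *com* range, and rhy50 had no count. Rank 3 (ptg000177l) had 4.45 to 16.9 TPM in the hybrids (mean 10.6), 0.46 to 1.42 TPM in *rhy* (mean 0.834) and 12.77 to 34.6 TPM in *com* (mean 21.5). Rank 4 (ptg000040l) had 16.1 to 43.0 TPM in the hybrids (mean 28.9), 1.18 to 4.66 TPM in *rhy* (mean 2.43) and 39.0 to 77.4 TPM in *com* (mean 50.7). In both, every hybrid exceeded every *rhy* fish, and comrhy62, in rank 3 also comrhy60, reached the range of the *com* fish. In rank 5 (ptg000771l) the hybrids fell into different ranges, with 27.2 and 19.2 TPM in comrhy59 and comrhy63 and 2.58 to 5.57 TPM in the other 3, against 0.67 to 2.29 TPM in *rhy* and 4.72 to 42.7 TPM in *com*.

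The member with the highest *com* mean (rank 89, maker-ptg000135l-snap-gene-52.7, contig ptg000135l, 582 bases) had 2091, 482, 618.5, 754 and 1196 TPM in the hybrids, 424, 355, 369, 346 and 375 TPM in *rhy*, and 1028, 829.8, 1503, 1716 and 2449.9 TPM in *com*. The *rhy* fish lay close together, whereas the hybrids ranged from just above *rhy* to above 4 of the 5 *com* fish. Rank 67 (ptg000346l), the second most abundant in *com*, had 518, 682, 544, 661 and 676 TPM in the hybrids, 244, 174, 190.5, 161 and 242 TPM in *rhy*, and 1034, 1040.3, 1027, 1097 and 737 TPM in *com*. Here the 3 groups did not overlap. The next 3 in *com* abundance were rank 144 (ptg000150l), with means of 463, 215 and 643 TPM in hybrids, *rhy* and *com*, rank 120 (ptg000367l), with 382, 171 and 582 TPM, and rank 122 (ptg000597l, 11803 bases, the longest member), with 318, 160.0 and 541 TPM. In ranks 120 and 122 the groups did not overlap, and in rank 144 com121, at 429 TPM, lay below comrhy59, comrhy60, comrhy61 and comrhy62.

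**Figure D2:**
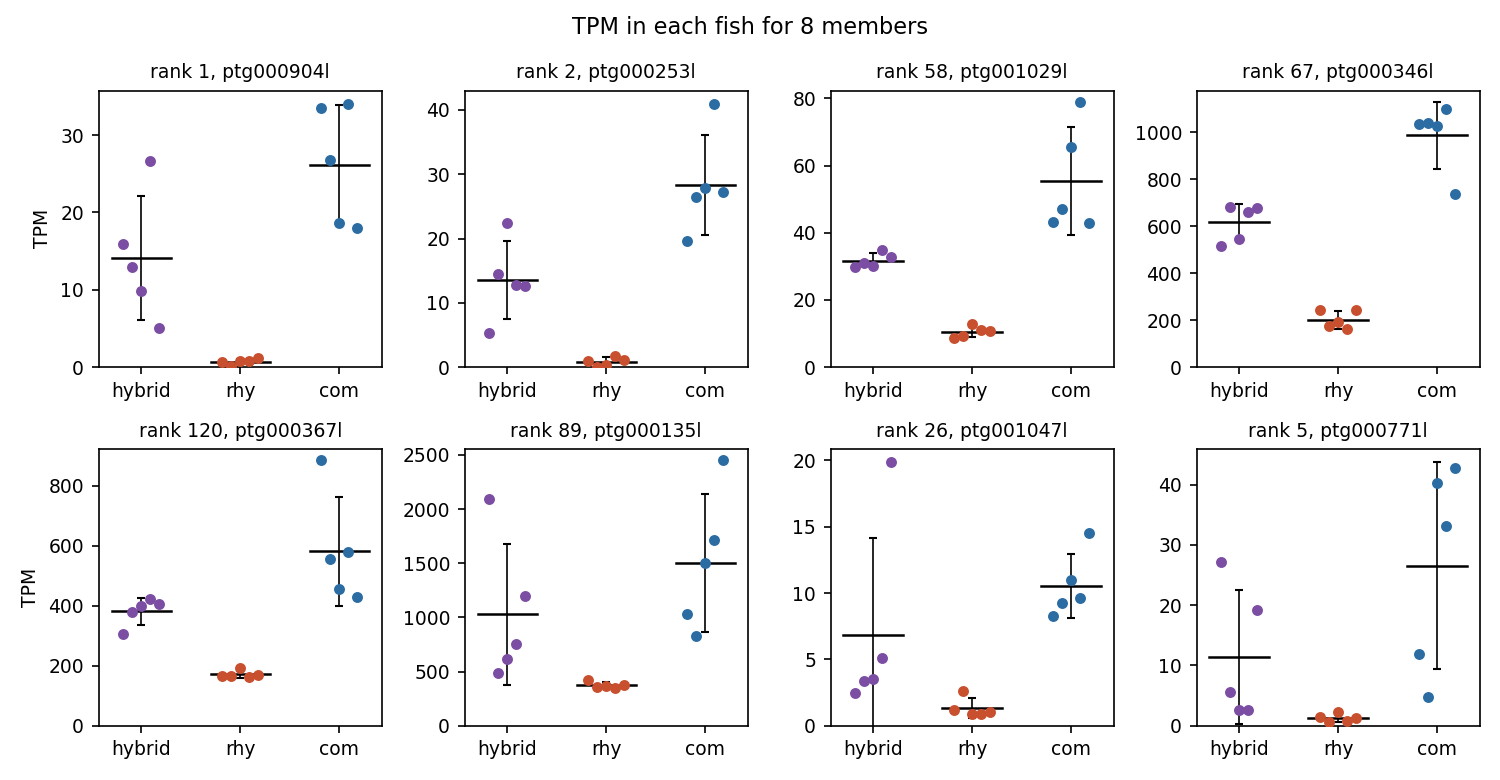
TPM of 8 members in each hybrid (left), *rhy* (middle) and *com* (right) fish, with a line at the group mean and bars of 1 SD (n = 5 each). Ranks 58, 67 and 120 show hybrids together between the parents. In ranks 89, 26 and 5 the hybrids lie far apart, although their mean has a position from 0.4 to 0.6.

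A hybrid mean near midway came about in different ways in different members. The SD of the position between the 5 hybrids was 0.048 to 0.80, with a median of 0.21, against a whole parental distance of 1. It was smallest in rank 58 (ptg001029l), with 29.8, 31.1, 30.01, 35.0 and 32.7 TPM in the hybrids, 8.83 to 12.9 TPM in *rhy* and 42.9 to 78.9 TPM in *com*. Rank 127 (ptg000783l) followed with 17.6 to 20.9 TPM in the hybrids, 8.17 to 11.17 TPM in *rhy* and 19.9 to 40.4 TPM in *com*, and rank 21 (ptg000178l) with 11.16 to 15.4 TPM in the hybrids, 1.44 to 6.81 TPM in *rhy* and 22.6 to 36.3 TPM in *com*. In ranks 58 and 21 all hybrids lay between both parents, and in rank 127 com104, at 19.9 TPM, fell below comrhy60. The spread was largest in rank 26 (ptg001047l), where comrhy63 had 19.8 TPM and the other 4 hybrids 2.43 to 5.09 TPM, against 0.89 to 2.64 TPM in *rhy* and 8.30 to 14.5 TPM in *com*, so that comrhy63 was above every *com* fish. Rank 129 (ptg000434l) had the same shape, with 10.5 TPM in comrhy63, 2.06 to 3.30 TPM in the other hybrids, 1.34 to 3.07 TPM in *rhy* and 4.01 to 8.60 TPM in *com*. In rank 117 (ptg000965l) comrhy60 had 7.36 TPM, whereas comrhy59 had 0.64 TPM, under every *rhy* fish (1.24 to 2.19 TPM), with 3.12 to 9.30 TPM in *com*.

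Taken fish by fish, 44 to 64 of the 150 members were inside the interval from 0.4 to 0.6, fewest in comrhy63 and most in comrhy62. All 5 hybrids were inside it in 2 members, 4 in 8, 3 in 33, 2 in 40, 1 in 39 and none in 28. The median position of the members was 0.56 in comrhy59, 0.50 in comrhy60, 0.54 in comrhy61, 0.50 in comrhy62 and 0.53 in comrhy63, so the medians of all 5 hybrids lay inside the interval. In comrhy59 13 members had a level above the *com* mean and 6 a level under the *rhy* mean, against 2 and 2 in comrhy62. With any 1 hybrid left out, the mean of the other 4 stayed inside the interval in 46 members, and in the others it left the interval for at least 1 of the 5 hybrids. The rule was met whichever of the 15 fish was left out by 32 members, among them ranks 34, 58, 67, 72, 83 and 127.

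**Figure D3:**
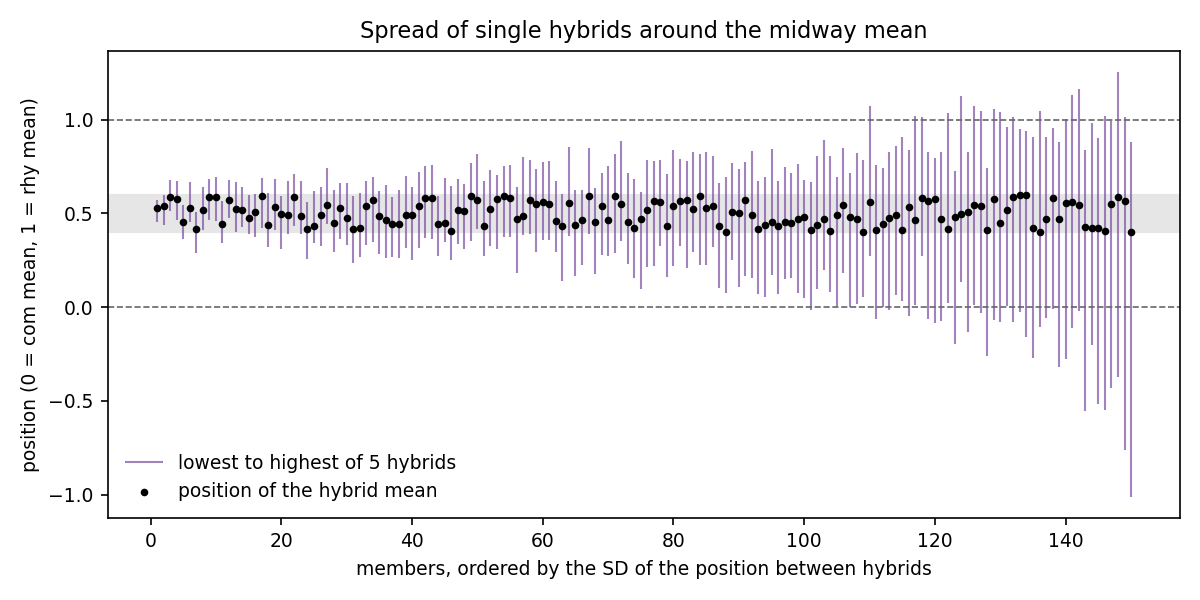
Position of the hybrid mean (black points) and the range of the 5 single hybrids (purple lines) for each of the 150 members, ordered by the SD between hybrids; 0 is the *com* mean and 1 the *rhy* mean. All means lie in the grey band from 0.4 to 0.6 that chose the members, whereas single hybrids lie between 0.46 and 0.57 in the member at the far left and reach -1.01 in the one at the far right.

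The order of the groups was tested across all gene models with edgeR's quasi-likelihood test on the expected counts, with Benjamini-Hochberg adjustment, and a gene counted as called where the adjusted p was under 0.05 and the change was more than 1 on the log2 scale. The rule used the same contrasts, so the calls of members are given beside the share over all 18489 gene models tested and nothing is read from them. *rhy* was called lower than *com* in all 149 members tested, beside 13.1% of all gene models tested, with a median log2 fold change of -2.27 over the members and -0.02 over all gene models tested. The hybrids were called higher than *rhy* in 83.9% of 149 members, beside 7.64% of all gene models tested, with medians of 1.43 over the members and 0.05 over all. The hybrids were called lower than *com* in 15 of 149 members, beside 4.42% of all gene models tested, with medians of -0.86 and 0.03. A hybrid level midway between the parents is at least 40% of the *com* level plus a part of the *rhy* level, which places most members inside the fold limit against *com*. With no fold limit the hybrids were called lower than *com* in 73 members, beside 1985 of all 18489 gene models tested. Without com104 the count with the fold limit was 23, beside 845 of all 18429 then tested. Over the 15 fish left out in turn it was 13 to 23, beside 717 to 853 over all gene models tested.

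The order of single fish is likewise given as a description only, since the rule used the same values. Every hybrid was above every *rhy* fish in 108 of the 149 members tested, beside 10.2% of all gene models tested. Every hybrid was below every *com* fish in 35 members, beside 4.09% of all gene models tested. Both held in 32 members, beside 0.979% of all gene models tested. Of all 150 members, 38 had hybrids that overlapped both parents.

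The scale on which midway is measured matters for genes with a large parental difference. On log2(TPM + 0.5), the median position of the members was 0.33 and the range 0.10 to 0.58, and 148 members had a position below 0.5. On the linear scale 77 members were below 0.5 and 73 at or above it. Hybrids at the arithmetic mean of the parents are thus nearer to *com* in fold terms, as in rank 1, where the log2 position was 0.23.

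Hybrid means of *rhy*-low gene models were spread over the whole range between the parents and past both ends of it. Of the 1118, 24.0% had a hybrid mean midway (95% Wilson interval 21.6% to 26.6%), beside 21.8% (19.5% to 24.3%) in the next interval towards *rhy*, from 0.6 to 0.8. In all, 406 had a hybrid mean nearer to *com*, 120 of them above the *com* mean. Another 444 had one nearer to *rhy*, 41 of them under the *rhy* mean. The midway share was 23.9% of 486 gene models with a *com* mean 2 to 3 times the *rhy* mean, 25.9% of 336 at 3 to 5 times, 24.0% of 204 at 5 to 10 times and 17.4% of 92 at 10 times or more. Among the last, 64 hybrid means lay nearer to *rhy* and 12 nearer to *com*, and the median position was 0.75, against 0.47 at 2 to 3 times. The rule takes the largest ratios first. Ratios of 5 to 10 (46 members) and of at least 10 (15 members) had more hybrid means nearer to *rhy* than to *com*. The other 89 members had a ratio below 5, where hybrid means were not more often nearer to *rhy*. At 3 to 5 times the median position was 0.496. The mirror set, 1625 gene models chosen in the same way for a *rhy* level at least 2 times that of *com*, had 24.4% of hybrid means midway (22.3% to 26.5%). There the interval nearest to it on the *com* side, from 0.2 to 0.4, held 27.0%, against 17.0% in the *rhy*-low set. In the mirror set *com* is the lower parent, so the counterpart in the *rhy*-low set is the interval from 0.6 to 0.8, with 21.8%. In the mirror set 824 hybrid means lay nearer to *com* and 405 nearer to *rhy*, so in both sets more lay nearer to the lower parent. These shares describe genes of the same 15 fish and were not tested.

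**Figure D4:**
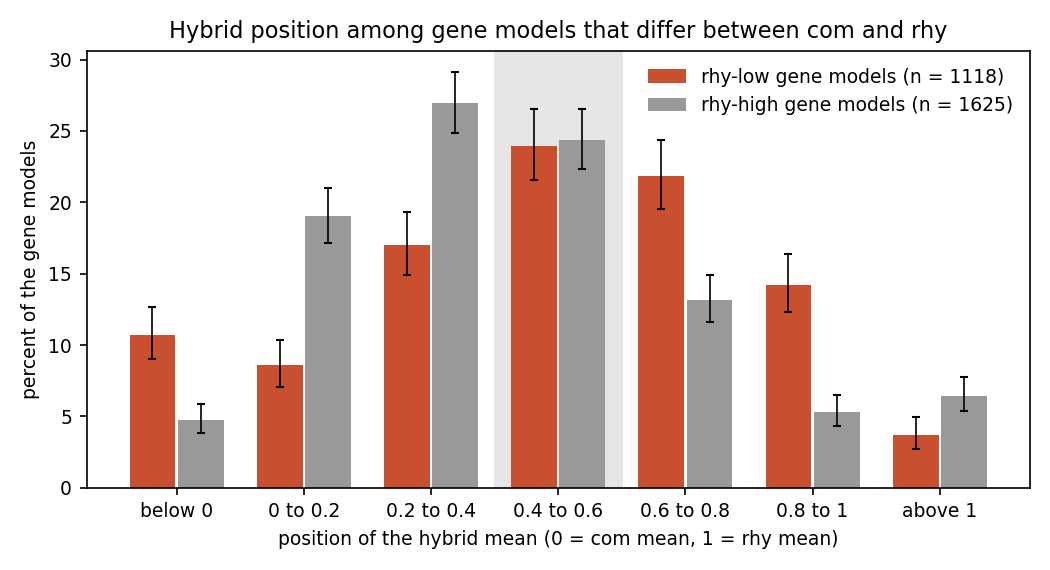
Percent of *rhy*-low (red, n = 1118) and *rhy*-high (grey, n = 1625) gene models in each interval of the position of the hybrid mean, from *com* (0) to *rhy* (1), with 95% Wilson intervals for counting error only. The shaded midway interval holds 24.0% of the *rhy*-low and 24.4% of the *rhy*-high gene models.

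The rule used differences between fish of the same group only in requiring that *com* and *rhy* fish did not overlap, and 7 members had such differences in common. For each member the log2(TPM + 0.5) of each fish was set against its group mean, and these deviations were compared over the 15 fish with those of rank 89, the most abundant member in *com*. Ranks 29 (ptg000962l), 15 (ptg000600l), 37 (ptg000085l), 50 (ptg000110l), 5 (ptg000771l) and 71 (ptg000170l) had Pearson's r of 0.80 to 0.94 with it and Spearman's rho of 0.79 to 0.91, and the next member had r of 0.55. The median r over all pairs of members was 0.03. Without comrhy59 and comrhy60, the fish farthest from the median of rank 89, r was 0.70 to 0.94. This group was picked after its values were seen and gets no test, and its points share the libraries and their depth.

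In these 7 members the hybrids were not alike. comrhy59 had the highest hybrid level in each, with positions of -0.52 to -0.01, that is, above the *com* mean. comrhy60, comrhy61 and comrhy62 had positions of 0.63 to 0.99, all on the *rhy* side of the interval that chose the members. Rank 50 had 157, 44.9, 51.6, 67.6 and 90.2 TPM in the hybrids, 25.1, 16.9, 25.7, 19.6 and 37.6 TPM in *rhy*, and 145, 90.6, 120.7, 153 and 198 TPM in *com*. Rank 15 had 18.8, 2.86, 2.53, 3.81 and 16.3 TPM in the hybrids, 1.54, 0.69, 2.24, 1.14 and 3.39 TPM in *rhy*, and 4.84, 6.3, 18.9, 18.7 and 44.3 TPM in *com*. Among *com* fish com125 was highest in all 7, and com121 or com104 lowest. The highest hybrid exceeded the lowest by 3.03 to 10.5 times and the highest *com* fish the lowest by 2.19 to 10.9 times. Past r of 0.75 with rank 89 were 6 of the other 149 members (4.03%) and 202 of 15009 other gene models with a *com* mean of at least 2 TPM (1.35%). Of these 202, 117 (57.9%) had a *rhy* mean of at most 50% of the *com* mean, beside 2366 (15.6%) of all 15159 gene models with that *com* minimum. All members are low in *rhy*, so the gene models most like them are these 2366, members included. Set against the 2366, the 117 are a share no smaller than the 4.03% of the members, so the pattern is not particular to the members. The pattern was thus also present in *com*-high gene models outside the members. A *com* mean of at least 1000 TPM was found in 13 of the 202. The electrocyte channel genes *SCN4AA* (r of -0.46) and *KCNA7A_1* (r of -0.33) did not share the pattern, and the part of cell composition in it was not tested.

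**Figure D5:**
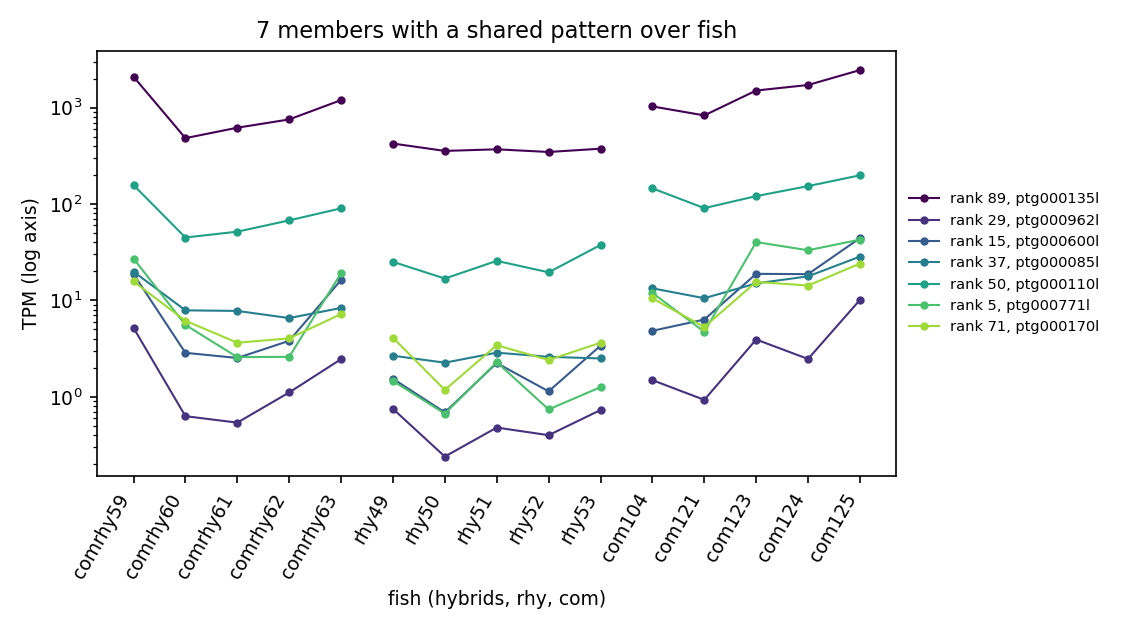
TPM on a log axis of 7 members in each fish, hybrids left, *rhy* in the middle and *com* right, with lines joining fish of a group only to guide the eye. In all 7 members comrhy59 is the highest hybrid and com125 the highest *com* fish, whereas the order of the *rhy* fish differs between members.

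The spread between fish was wide in the members. The median coefficient of variation of TPM was 26.4% in the hybrids, 35.8% in *rhy* and 29.1% in *com*, beside 25.99%, 29.3% and 27.9% in the 850 *rhy*-low gene models whose hybrid mean was not midway. Over the 15159 gene models with a *com* mean of at least 2 TPM it was 18.6% in the hybrids, 18.9% in *rhy* and 23.6% in *com*. The SD of the position between hybrids had a median of 0.21 in the members and 0.22 in the other *rhy*-low gene models. Counts set a limit here. The 5 *rhy* libraries together held 3 to 64546 counts per member (median 194.5), under 50 in 27 members and under 10 in 2, and the member with 3 *rhy* counts (rank 10, ptg001884l, 33 counts in *com*) did not pass the filter for the test.

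The members lay 1 to a contig on 101 contigs and 2 to 4 to a contig on a further 22. MAKER identifiers carry a contig and a block number, which is used here as a rough measure of place, since no coordinates were used. In 5 cases 2 members shared contig and block: ranks 48 and 88 (ptg000043l), 24 and 73 (ptg000212l), 34 and 83 (ptg000481l), 17 and 58 (ptg001029l), and rank 128 with a member at a *com* mean of 357 TPM (ptg000600l). Within a pair the *rhy* percentages of *com* were 16.9 and 24.8, 12.4 and 22.0, 14.7 and 24.3, 10.5 and 19.0, and 30.9 and 29.6, in that order. The pairs' deviations between fish had r of 0.10 to 0.50. Other gene models in the same blocks as members were also somewhat more often low in *rhy*. Of 558 such neighbours with a *com* mean of at least 2 TPM, 22.0% had a *rhy* mean of at most 50% of *com*, beside 15.6% of all 15159. Their median *rhy* level was 97.9% of *com*, beside 106% for all, so most neighbours were not low in *rhy*. Genes of a block are not independent, and this difference was not tested.

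In the blocks of members, 12 gene models have names in the study's tables. The *rhy* mean was at most 50% of *com* in 5 of them and 92.3% to 1021% of *com* in the other 7. Over all 15159 gene models with a *com* mean of at least 2 TPM that share was 15.6%. The study placed all 5 in its cluster of genes whose level falls as discharge duration rises. A low *rhy* level is thus close to part of the reason why they have names, and nothing is read from the count. *CACHD1*, among the 5, had a *com* mean of only 1.17 TPM. Rank 7 (ptg000869l) carries the number next to *MYOCD*, whose product myocardin switches on muscle genes together with serum response factor, which had 2.06 TPM in the hybrids, 0.222 TPM in *rhy* and 2.35 TPM in *com*. Rank 85 shares its block on ptg000335l with *DLGAP2*, which had 30.9 TPM in the hybrids, 11.23 TPM in *rhy* and 48.5 TPM in *com*. The deviations between fish of the 12 and of the member beside them had r of -0.67 to 0.85, highest for *DLGAP2*. Rank 28 shares a block on ptg000697l with *KCNQ5A*, a voltage-gated potassium channel gene, at 9.74 TPM in the hybrids, 1.25 TPM in *rhy* and 8.60 TPM in *com*. *MYOCD* and *KCNQ5A* were low in *rhy* like the members, but their hybrid means had positions of 0.13 and -0.15, at the *com* end. *COL4A6*, a basement membrane collagen in the block of rank 33 (ptg000136l), had 2.34 TPM in the hybrids, 1.15 TPM in *rhy* and 4.97 TPM in *com*, a position of 0.69. By contrast, *TMEM233*, in the block of rank 1, had 29.9 TPM in the hybrids, 110.0 TPM in *rhy* and 10.8 TPM in *com*, the opposite parental order.

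Length and annotation were not used by the rule. The median length of the members was 2444.5 bases (quartiles 1378 and 3689), beside 2302 bases in the other *rhy*-low gene models and 2140 in all with a *com* mean of at least 2 TPM, and 17.3% were under a length of 1000 bases, beside 16.8% and 18.3%. The predictor SNAP made 78 of the 150 members (52%), AUGUSTUS 48 (32.0%) and SNAP on masked sequence 22 (14.7%), beside 55.8%, 30.5% and 10.5% of gene models with a *com* mean of at least 2 TPM. A fractional expected count, which marks reads shared with another gene model, was present in 15 members (10%), beside 9.46%. In those 15, part of the level can belong to a near-identical copy. Among them were ranks 2 and 117 and both members of the pair on ptg000600l, rank 128 and the member beside it, with fractional counts in 8 libraries each.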

How the data were processed

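Electric organ RNA of 15 juvenile fish (5 hybrids, 5 *rhy*, 5 *com*) was measured in strand-specific poly(A) libraries. The authors trimmed reads with Trimmomatic 0.39 and mapped and counted them on *com* gene models with RSEM. The deposited files give expected counts and TPM for 34492 gene models with 1 transcript each. Expected counts were rounded to whole numbers for tests, and TPM was used as deposited for levels and positions.

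Counts above 10 in at least 2 libraries were required, following the study, and all 15 libraries entered 1 fit with 1 coefficient per group in edgeR 4.0.16 (R 4.3.3, TMM scaling, quasi-likelihood test, Benjamini-Hochberg adjustment). DESeq2 1.42.0 was an alternative. The fit was tested on simulated data. Positions and summaries were computed with Python 3.11 and pandas. No 2 libraries of a group agreed within sampling noise.

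Members were identified by the *com* over *rhy* ratio and the hybrid position as described above. The named members were the first 5 ranks, the 5 most abundant in *com*, the extremes of position and of its spread, those sharing a block and the most extreme single fish. Ranks 7, 10, 15, 28, 29, 33, 37, 50, 85 and 108 are named for other reasons given beside them, with their values already known. The members and lists were chosen with earlier results of these data known. In the study's supplementary tables, 7 identifiers could not be matched to a gene model. Those of *MIPOL1* and *CPT2* are among the 7, but the study's main table prints both in a form that was matched and excluded. For the others, a member may carry a name there. The identifier of rank 108 (ptg000600l) differs from 1 of them by a single character. Alternatives covered scaling, filters, group medians, a pseudocount of 0.5 TPM, the log2 scale, fold limits and leaving out each fish. Intervals cover counting error only.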

Additional observations from a re-analysis of the deposited data

Results flagged for a closer look

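Of 450 sets of 5 fish (150 members in 3 groups), 36 had 1 fish apart from the other 4, its gap to the nearest being over 0.71 of the group's range; about 1 in 20 sets is expected to be so by chance. In 11 of the 36 the fish was com104, in 4 com121, in 4 comrhy59 and in none com123, com124 or comrhy62. Among the 39 members described one by one, 14 sets had such a fish. The most extreme was rank 72 (ptg000314l), where com104 had 360.3 TPM and the other *com* fish 249 to 259 TPM (gap of 0.911 of the range).

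The same fish, com104, was apart in rank 4, with 77.4 TPM against 39.0 to 48.1 TPM in the other *com* fish (gap of 0.762). In rank 120, rhy51 had 192 TPM and the other *rhy* fish 163 to 170.0 TPM (gap of 0.761). Both members on ptg000212l had com104 high, at 30.9 TPM against 16.4 to 19.6 TPM in rank 24 (gap of 0.779) and 345 TPM against 142 to 184 TPM in rank 73 (gap of 0.790). In rank 67, com125 was low, at 737 TPM against 1027 to 1097 TPM (gap of 0.805).

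In rank 26, comrhy63 was high among the hybrids (19.8 TPM against 2.43 to 5.09, gap of 0.847) and rhy50 among *rhy* (2.64 TPM against 0.89 to 1.21, gap of 0.817). comrhy63 was also apart in rank 129 (10.5 TPM against 2.06 to 3.30, gap of 0.853). In ranks 21 and 128, rhy52 was high, at 6.81 TPM against 1.44 to 2.81 (gap of 0.745) and at 9.35 TPM against 4.73 to 5.35 (gap of 0.866).

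In rank 37, one of the 7 members with a pattern in common, comrhy59 had 19.9 TPM and the other hybrids 6.56 to 8.36 TPM (gap of 0.865). comrhy59 was also apart in rank 7, with 7.19 TPM against 3.37 to 4.04 TPM (gap of 0.825). In rank 108, com121 had 9.52 TPM and the other *com* fish 4.04 to 4.96 TPM (gap of 0.832).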

How the results depend on the processing

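The members' order was kept under every scaling tried: the *rhy* mean stayed below and the hybrid mean between the parents in all 150. The rule set the groups farther apart than these scalings shift them, so the order could hardly have changed and this is no test of it. The position moved. Its median was 0.49 on deposited TPM, 0.55 on TMM-scaled counts per kilobase, 0.57 with DESeq2 size factors, 0.54 without the 2 most abundant gene models and 0.33 on log2(TPM + 0.5). Over all gene models with a *com* mean of at least 2 TPM, the median log2 ratio of hybrid over *com* was 0.13 on TPM, -0.01 with TMM and -0.05 with DESeq2 size factors. The midway label thus holds for TPM, and 94 members still met the rule with DESeq2 size factors, 81 with group medians and 30 on the log2 scale. The midway share of *rhy*-low gene models was 20.4% where overlap of *com* and *rhy* fish was allowed, and 20.4% to 25.1% over the alternatives that kept all fish.

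The members in which hybrids were called lower than *com* numbered 15, against 73 with no fold limit, 0 with a log2 fold limit of 2 in edgeR (the lowest hybrid mean was 43.0% of *com*, inside that limit), 28 with DESeq2 and 23 in a fit of those groups alone. Over all 18489 gene models tested, 817 were called lower than *com*, against 1985 with no fold limit, 278 with a limit of 2 and 956 with DESeq2. The fit of those groups alone called 819 of 18004. Hybrids were called higher than *rhy* in 83.9% of 149 tested, against 28 members with a limit of 2. Over all gene models tested these calls numbered 1412 and 554.

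With each fish left out in turn, 111 to 139 members met the rule, the pool before the limit held 245 to 312, the median position was 0.49 to 0.51, the median *rhy* level 20.9% to 23.2% of *com* and the midway share 21.9% to 25.7%. Calls of members were 148 to 149 for *rhy* lower than *com*, 13 to 23 for hybrids lower than *com* and 111 to 127 for hybrids higher than *rhy*. Over all gene models tested the calls numbered 2256 to 2467, 717 to 853 and 1187 to 1461, in that order. No paired analysis was possible because the groups are different fish and the labels link no fish of 1 group to a fish of another. Depth limits the members of low abundance: 27 had under 50 counts over the 5 *rhy* libraries.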
